A study of Mus musculus with 9 samples.

Results

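The endothelin system was examined through 6 genes: the ligands Edn1, Edn2 and Edn3, the receptors Ednra and Ednrb, and the converting enzyme Ece1. The genes were named by symbol as one signalling system, by a rule that uses no measured value, although earlier results of these data were known. All 6 were listed both among the 16367 genes of the sorted-cell table and among the 17035 genes of the culture table. Expression was measured by RNA sequencing in 3 groups of wild-type mouse retinal cells with 3 libraries each. The sham group had only a corneal cut, and the ocular hypertension (OHT) group had 1.2 µL of silicone oil put into the anterior chamber of each eye. Cells of both groups came from pools of 4 retinas, were cleared of dead cells and were captured on magnetic beads through GLAST, the glutamate transporter encoded by Slc1a3, which astrocytes also carry. The culture group consisted of untreated cells labelled as primary Müller glia, grown in serum from C57BL/6J pups aged 8 to 10 days and passaged. The labels give neither the age nor the strain of the sorted animals, nor which animals contributed to a library, so each p-value measures only the spread between these libraries.

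Endothelins are short vasoconstrictor peptides that are released from long precursors in steps, first by furin-type proteases and then by the converting enzyme. They act on a pair of receptors coupled to G proteins: Ednra, the classical contractile receptor of vascular mural cells, and Ednrb, which endothelial cells, astrocytes and Müller glia carry. In the retina the system is studied for its part in vessel tone, in glial reactivity and in glaucoma, and Edn2 is known as a gene that injured photoreceptors induce.

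The 3 ligands are close relatives, and the stretch of 63 bases that encodes each mature peptide of 21 residues shows how far their transcripts can be told apart. These stretches were read from GENCODE M21 mouse transcripts, 5′ to 3′, and the 4 cysteine codons, whose residues form the peptides' disulfide bridges, are in capitals.
Edn1: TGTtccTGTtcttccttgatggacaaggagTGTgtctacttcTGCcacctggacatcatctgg
Edn2: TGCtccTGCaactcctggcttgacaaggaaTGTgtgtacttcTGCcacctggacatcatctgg
Edn3: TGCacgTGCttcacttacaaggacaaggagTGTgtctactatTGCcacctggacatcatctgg
Edn1 and Edn2 had the same base at 53 of the 63 positions, Edn1 and Edn3 at 50, and Edn2 and Edn3 at 48. The longest run of bases shared by the whole transcripts was 29 between Edn1 and Edn2 and 21 between Edn3 and either of the others. All these runs are shorter than the reads of 150 bp.

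The sorted libraries held 37.8 to 53.6 M reads and the cultures 66.3 to 76.7 M (1 M is 1e6). Values are normalised read counts, that is reads divided by 1 factor per library, unless given in ppm (reads per 1e6 reads of the library). The 12 Müller glia markers, summed, were at 3530 to 8583 ppm in sham and 1923 to 4034 ppm in OHT libraries, below the 12 microglia and macrophage markers (37102 to 52020 ppm and 61293 to 72055 ppm) in every sorted library. In the cultures Vim alone, at 2757 ppm, made up most of the Müller glia sum of 2717 to 3570 ppm. The defining Müller genes Rlbp1 (2.24 ppm), Aqp4 (2.57 ppm) and Kcnj10 (0.318 ppm) were low there, while Acta2 was at 10370 ppm and Col1a1 at 5717 ppm.

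The first comparison asked whether endothelin genes differed between the sorted cells of OHT and sham eyes. None of the 6 genes passed the adjusted threshold, and in each of them the OHT and sham values overlapped. Ednrb had the largest difference, with a mean 6.11 times as high in sham as in OHT, but 1 sham library lay in the OHT range. Ece1 and Edn1, the other well-detected members, had group means that differed by at most 1.17-fold. Edn3, Ednra and Edn2 were low, and their libraries spread more widely than the groups differed.

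The test was limma with Benjamini-Hochberg adjustment, on log2(value + 1). It covered the 14403 genes whose mean over sham and OHT libraries was 10 or more, a level that all 6 endothelin genes reached. On this scale fold changes of low genes are understated. With the adjusted threshold of 0.05, limma called 0 of these genes (0.00%), and edgeR on the recovered reads also called 0 (0.00%). At an unadjusted p under 0.05 limma gave 1680 genes (11.7%), with Ednrb as the 1 member among them. Of all genes, 5.37% were higher and 6.30% lower in OHT at that p. DESeq2 called 250 genes (1.74%), none of them a member. The median log2 difference was -0.24 over the 6 endothelin genes and -0.12 over all genes tested.

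**Figure D1:**
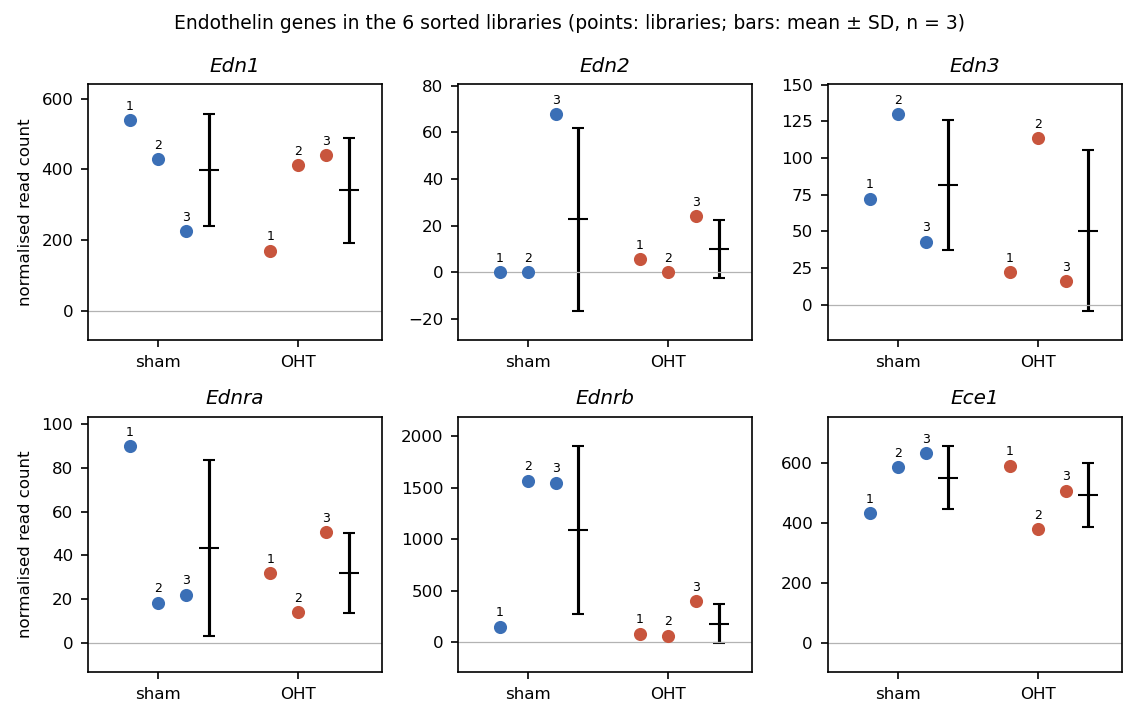
Normalised read counts of the 6 endothelin genes in the 3 sham and 3 OHT libraries (linear axis; numbered points are replicates, bars are mean ± SD, n = 3). Ednrb reached 1566 and 1548 in sham replicates 2 and 3 but 149.8 in sham replicate 1, and in each panel the ranges of the groups overlap.

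Among the ligands, Edn1, the main endothelial endothelin, was at 538, 429 and 225 in sham replicates 1 to 3 and at 169.95, 412 and 439.95 in OHT replicates 1 to 3. The lowest value was in OHT, but the other OHT libraries lay between the sham libraries. The means were 397 ± 159 in sham and 340.5 ± 148 in OHT (SD, n = 3), with a log2 difference of -0.25 ± 0.66 (SE; adjusted p 0.883 in limma). The exact two-sided permutation p was 0.6, where 0.1 is the smallest possible. Without OHT replicate 1 the log2 difference was 0.19, and without sham replicate 1 it was 0.01. Beside it, the 10 endothelial markers summed to 236 to 499.6 ppm in sham and 110.5 to 209.97 ppm in OHT libraries, without overlap. Kdr and Flt1 made up most of each sum, and the other 8 genes summed to 35.5 to 124.6 ppm in sham and 15.4 to 32.0 ppm in OHT libraries. Kdr and Flt1 alone summed to 188.25 ppm in sham replicate 1 and to 193.7 ppm in OHT replicate 3, so their sums overlapped between the groups. In sham replicate 3 Kdr and Flt1 summed to 200.4 ppm and the other 8 genes to 35.5 ppm, both above every OHT library. Of those 8 genes, Pecam1 (1.87 ppm) and Cdh5 (0.180 ppm) were lower in sham replicate 3 than in any OHT library. The part of these markers in the Edn1 values was not tested. In bulk RNA, fewer cells of a type and less RNA per cell cannot be told apart.

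Edn2 was listed at 0 in sham replicates 1 and 2 and in OHT replicate 2, at 67.9 in sham replicate 3, and at 5.53 and 24.04 in OHT replicates 1 and 3. These were 71, 4 and 30 reads. A count of 0 allows up to 0.0793 and 0.0703 ppm in those sham libraries and 0.0560 ppm in that OHT library, for counting error only. Sham replicate 3 thus carried the whole sham signal, and the direction of the difference was not stable. The mean was higher in sham (22.6 against 9.86 in OHT), while the log2 difference had the opposite sign. It was 0.42 ± 2.19 on the log2 scale (SE; adjusted p 0.943 in limma, and 1 by exact permutation), 2.45 without sham replicate 3, -0.19 with a pseudocount of 10 and -1.20 in DESeq2.

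Edn3, the ligand that acts with Ednrb in neural crest cells, was at 72.3, 130.06 and 43.1 in sham and at 22.1, 113.6 and 16.03 in OHT. OHT replicates 1 and 3 lay below every sham library, and OHT replicate 2 lay above sham replicates 1 and 3. Edn3 differed by -1.08 ± 1.14 on the log2 scale (SE; adjusted p 0.7004 in limma, and 0.3 by exact permutation), and the difference stayed below 0 under each alternative, from -1.92 to -0.55. Of the ligand reads per kb of transcript, Edn1 made up 63.6% to 91.6% in sham libraries, 84.1% to 90.5% in OHT libraries and 95.6% to 97.7% in cultures. Its lowest share was in sham replicate 3, where Edn2 made up 28.1%. These shares use the longest transcript, which for Edn3 is 3117 bases against a median of 1579. With the median length the Edn3 share would be larger and the Edn1 share smaller wherever Edn3 had reads.

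Among the receptors, Ednra was at 89.9, 18.4 and 22.0 in sham replicates 1 to 3 and at 31.8, 14.0 and 50.5 in OHT replicates 1 to 3, from 17 to 87 reads per library. Sham replicate 1 was the highest and OHT replicate 2 the lowest. Ednra differed by -0.23 ± 1.23 on the log2 scale (SE; adjusted p 0.944 in limma, and 0.8 by exact permutation). The difference was 0.47 without sham replicate 1 and 0.26 without OHT replicate 2. The 11 mural and fibroblast markers summed to 127.6 to 273 ppm in sham and 9.76 to 57.7 ppm in OHT libraries, without overlap, but most of each sham sum was Rgs5. Without Rgs5 the other 10 genes summed to 26.0, 32.4 and 46.7 ppm in sham and to 28.3, 4.91 and 8.21 ppm in OHT, which overlapped. The Ednra groups overlapped as well, and the part of mural cells in its values was not tested.

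Ednrb was at 149.8, 1566 and 1548 in sham replicates 1 to 3 and at 81.5, 59.3 and 393 in OHT replicates 1 to 3. Sham replicates 2 and 3 stood far above the other 4 libraries, and OHT replicate 3 lay above sham replicate 1. The means were 1088 ± 813 in sham and 178 ± 187 in OHT (SD, n = 3), a log2 difference of -2.51 ± 1.02 (SE). In limma its unadjusted p was 0.0305 and its adjusted p 0.387, and the exact permutation p was 0.2. It stayed below 0 under each alternative, between -3.64 without sham replicate 1 and -1.95 without sham replicate 2, with adjusted p-values from 0.0819 in DESeq2 to 0.904. The genes lower in OHT at an unadjusted p under 0.05 numbered 907, and Ednrb ranked 1131 among the 14403 genes by p.

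Several cell type lists moved with Ednrb across the libraries. The 10 rod markers summed to 2472, 24408 and 19335 ppm in sham replicates 1 to 3 and to 791, 999 and 3134 ppm in OHT replicates 1 to 3, the same high and low libraries as Ednrb. The 6 astrocyte markers were at 469.7, 2582 and 2446 ppm and at 339, 287 and 661 ppm, with Aldoc and Gfap highest by the group means. Aldoc made up most of the mean sum in both groups, and no sum without it was formed. Gfap was below Slc1a2 in sham replicate 1 (3.99 against 36.5 ppm) and in OHT replicate 2 (8.38 against 14.4 ppm). The Müller glia sum was highest in sham replicate 2 (8583 ppm) but lower in sham replicate 3 (3530 ppm) than in OHT replicate 3 (4034 ppm). Median log2 differences were -2.55 over the 10 rod genes, -1.605 over the 6 astrocyte genes and -0.81 over the 12 Müller glia genes. No marker of the rod, astrocyte or Müller glia lists was at 0 throughout a sorted group. The part of these lists in the Ednrb difference was not tested.

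The balance of the receptors within a library does not depend on the scaling. Per kb of transcript, Ednrb was 1.47, 74.9 and 62.1 times as high as Ednra in sham replicates 1 to 3, and 2.26, 3.74 and 6.88 times as high in OHT replicates 1 to 3. Ednrb was thus the higher receptor in all 6 sorted libraries, and sham replicate 1 had the lowest ratio of all. In the cultures the order was the opposite, with Ednra 5.85, 6.73 and 6.65 times as high as Ednrb.

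Ece1, the membrane protease that makes active endothelin from its precursor, was the most even member. Its values were 433, 587 and 633 in sham and 591, 379 and 508 in OHT, a range of 1.67-fold over the 6 libraries. The OHT libraries lay in and below the sham range, and Ece1 differed by -0.17 ± 0.51 on the log2 scale (SE; adjusted p 0.8995 in limma, and 0.6 by exact permutation). It was 0.01 without OHT replicate 2.

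**Figure D2:**
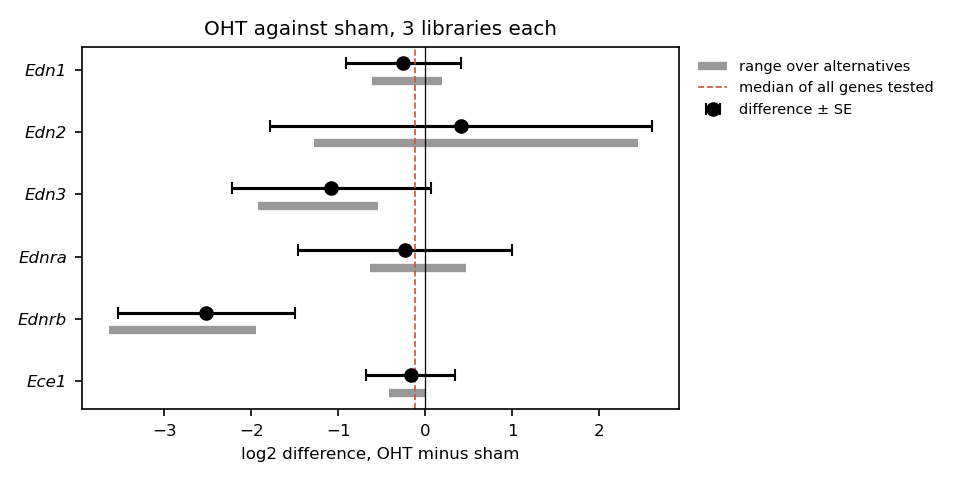
Log2 difference of each endothelin gene, OHT minus sham (points with SE bars; n = 3 libraries a group), with the range over the alternative settings in grey and the median of all genes tested (-0.12) as a dashed line. Ednrb lies at -2.51 with all alternatives below 0, while the ranges of Edn1, Edn2, Ednra and Ece1 cross 0.

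Levels of different genes were compared per kb of their longest transcript. In sham libraries the order by mean was Ednrb (6.496 ppm per kb), Edn1 (4.67), Ece1 (2.83), Edn3 (0.660), Edn2 (0.364) and Ednra (0.302). Only the step from Ece1 to Edn3 separated neighbours in every library and without overlap. In OHT libraries the order was Edn1 (3.67 ppm per kb), Ece1 (2.15), Ednrb (1.06), Edn3 (0.357), Ednra (0.196) and Edn2 (0.164), and each pair of neighbours overlapped. Ednrb was below Ece1 in each OHT library. With the median transcript length, 524.5 bases for Ece1 against 4816 for its longest transcript, Ece1 came first in both sorted groups.

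The cultures were set beside the sorted cells to show which endothelin genes the libraries labelled as primary Müller glia carried. Their low Rlbp1, Aqp4 and Kcnj10 and their high Vim, Acta2 and Col1a1 are given above. The tables were normalised separately, so these levels are in ppm and carry no test. Ece1, Ednra and Edn1 were higher in all 3 cultures than in any sorted library. Edn3 was nearly undetected in culture, and Ednrb lay near its lowest sorted libraries.

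Ece1 was at 153.6, 153.6 and 145.6 ppm in the cultures against 8.60 to 14.9 ppm in the sorted libraries, a mean 12.6 times as high. Ednra was at 9.65, 6.68 and 9.94 ppm against 0.317 to 2.30 ppm, 9.69 times as high by the means. Edn1 was at 40.1, 32.0 and 23.9 ppm against 2.58 to 13.8 ppm, 3.59 times as high. These 3 genes led the culture order per kb of transcript, which was Ece1 (31.3 ppm per kb), Edn1 (15.0), Ednra (2.42), Edn2 (0.579), Ednrb (0.380) and Edn3 (0.00283). All neighbours in it were separated without overlap except Edn2 and Ednrb.

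Ednrb was at 1.87, 1.12 and 1.69 ppm in the cultures, close to OHT replicates 1 and 2 (1.24 and 1.34 ppm) and below the other 4 sorted libraries (3.83 to 39.8 ppm). Edn2 was at 1.25, 0.912 and 0.378 ppm, within the sorted range of 0 to 1.597 ppm. Edn3 had 0, 2 and 0 reads in the cultures, where a count of 0 allows up to 0.0452 ppm in replicate 1 and 0.0391 ppm in replicate 3, against 0.336 to 3.31 ppm in the sorted libraries. Beside the higher Ednra, the mural and fibroblast marker sum was 15038 to 17787 ppm in the cultures, against 9.76 to 273 ppm in sorted libraries. Acta2 (10370 ppm) and Col1a1 (5717 ppm) made up most of the culture sum. Rgs5 (3.04 ppm), Kcnj8 (0.0438 ppm) and Abcc9 (0.0238 ppm) were below their sham means of 172, 3.63 and 3.30 ppm. The other genes of the list were above theirs. The culture endothelial sum was 38.8 to 49.5 ppm, while Edn1 was higher than in sorted cells. That sum covers 9 genes, because Cldn5 was not listed for the cultures. Tek, the highest of them by the culture means (15.7 ppm), was above its sham and OHT means. The other listed genes, among them Cdh5 at 0.103 ppm, were below both of theirs. The part of these lists in the culture levels was not tested.

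**Figure D3:**
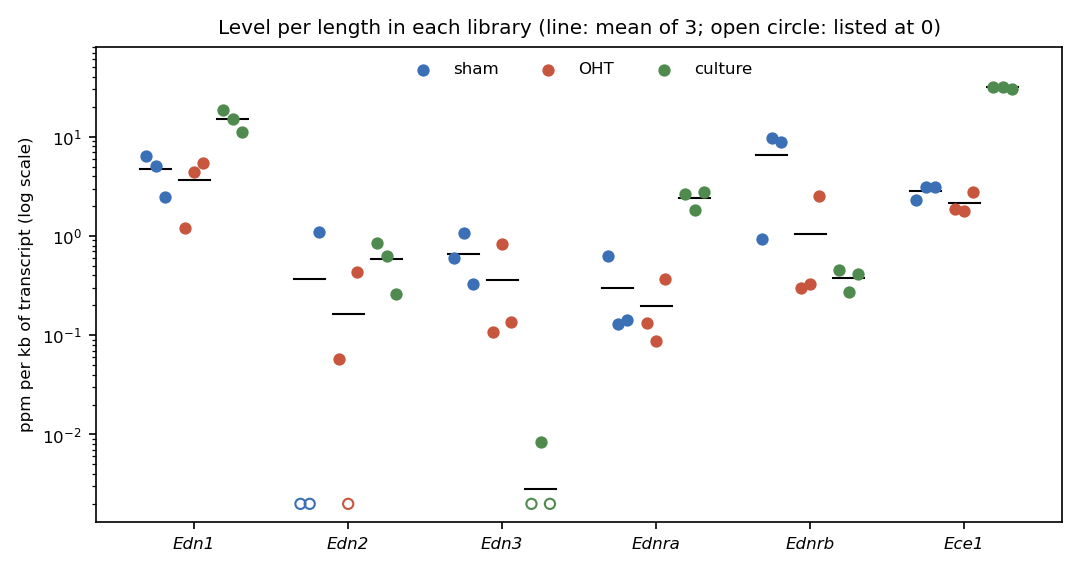
Level of each endothelin gene in ppm per kb of transcript (log axis) in every sham, OHT and culture library; lines are means of 3 libraries and open circles mark libraries listed at 0. Culture points of Ece1, Ednra and Edn1 lie above all sorted points, and culture points of Edn3 are at 0 or 0.00848.

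The genes whose profile over the 6 sorted libraries was most like that of each member were found among 11479 named genes with a mean of at least 100. Likeness was the root mean square difference of centred log2(value + 1) values, as a description. For Ednrb they included Gnat1 (0.26), the transducin subunit of rods, and Osbp2 (0.34), an oxysterol-binding protein gene. Gnat1 was at 17232, 160879 and 154094 in sham replicates 1 to 3 and at 10370, 8930 and 33574 in OHT replicates 1 to 3. For Ece1 the nearest genes were Maco1 (0.06), Ubxn8 (0.08) and Glo1 (0.09), the glyoxalase gene. For Edn1 they were Zfp217 (0.11), Ankrd44 (0.13) and Dusp19 (0.13).

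These distances grow with the spread of a profile over the 6 libraries, whose SD was 1.88 for Ednrb, 1.11 for Edn3, 0.88 for Ednra, 0.59 for Edn1 and 0.26 for Ece1, and so were not compared between members. The genes nearest to Edn3 included Zfp276 (0.27) and Cacnb1 (0.33), which encodes a calcium channel subunit. Ednra was nearest to Catip (0.33), Cplx3 (0.37), a complexin gene of ribbon synapses, and Gng3 (0.44). For Edn2, with its 3 zeros, the nearest genes were Slc4a10 (1.23), Fpr1 (1.24) and the complement gene C3 (1.35). With a pseudocount of 10, chosen after seeing the data, 0 of the 3 genes nearest to Edn2 and 1 of the 3 nearest to Edn3 were again among the nearest.

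**Figure D4:**
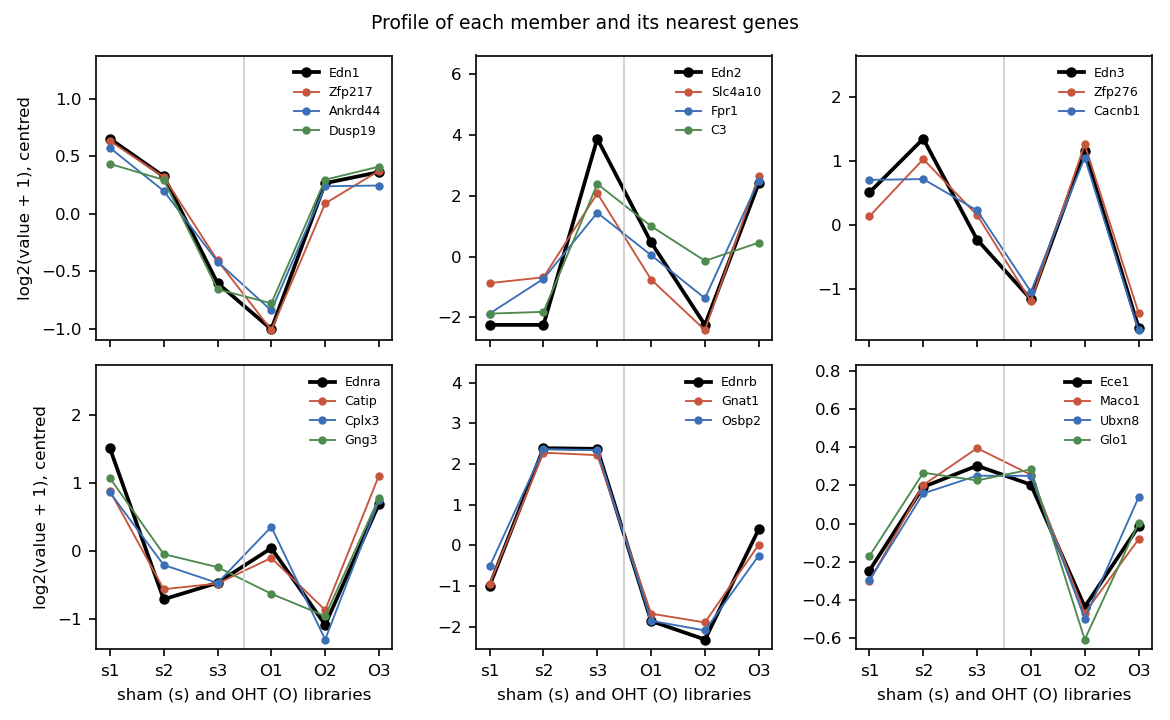
Centred log2(value + 1) of each endothelin gene (black) and 2 or 3 of its nearest genes over the 6 sorted libraries; lines only join the values of 1 gene. The Ednrb panel shows the 2 high sham libraries shared with Gnat1 and Osbp2, and the Edn2 panel shows curves that lie apart, at distances of 1.23 to 1.35.

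Other genes of the pathway were taken from 6 lists with 78 different genes, of which 70 were kept by the filter. None passed in limma (smallest adjusted p 0.332), and 8 of the 70 (11.4%) had an unadjusted p under 0.05, against 11.7% of all genes. OHT lay above sham without overlap in 5 and below it in 11 of the 70 genes, where 9.26% of all genes lay above and 9.18% below. In ppm the counts were 2 above and 13 below, against 5.44% and 11.4% of all genes, and Ctsa, Smad4, Lif and Prkca then overlapped. The counts for each list below are those in normalised counts. The median log2 difference of the 70 genes was -0.40, against -0.12 of all genes.

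For ligand processing and clearance, 5 of 8 genes were kept, with 2 above and 1 below without overlap and a median log2 difference of 0.21. Ctsa, a lysosomal carboxypeptidase that can degrade endothelin, was the highest of them, at 58285 in sham and 104872 in OHT (a log2 difference of 0.88 ± 0.36, SE; adjusted p 0.387 in limma). Furin, the protease that cuts the precursor first, was at 572 and 1178 (a log2 difference of 1.06 ± 0.49, SE; adjusted p 0.429 in limma). Mmel1, a relative of neprilysin, was at 61.0, 7.38 and 50.7 in sham and at 0, 2.47 and 0 in OHT.

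For receptor coupling all 22 genes were kept, with 0 above and 3 below without overlap and a median of -0.19. The 3 were Plcb1 (159 in sham, 45.6 in OHT), a phospholipase that G proteins of the Gq class activate, the protein kinase gene Prkca (1082 and 615) and Arhgef12 (1048 and 671), which links G proteins to RhoA. Their limma adjusted p-values were between 0.487 and 0.545. Rhoa, the highest of the list, was at 13298 and 17419, and its groups overlapped.

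For receptor desensitisation 10 of 10 genes were kept, with 1 above and 3 below without overlap and a median of -0.15. Rgs4, which speeds the shut-off of G proteins that endothelin receptors use, was at 416, 2954 and 4313 in sham and at 38.7, 57.6 and 94.6 in OHT (a log2 difference of -4.85 ± 0.87, SE; adjusted p 0.332 in limma). Its limma adjusted p was 0.0326 without sham replicate 1, and DESeq2 called it. Rgs5, a pericyte gene of the same family, was at 6986 and 967 (a log2 difference of -3.27 ± 0.68, SE; adjusted p 0.332 in limma) and was called by DESeq2 as well. Rgs2 was at 13268 and 29237 (a log2 difference of 1.15 ± 0.35, SE; adjusted p 0.332 in limma). Rgs5 is itself in the mural marker list and made up most of its sum in sham. Rgs4 and that sum were both higher in each sham library than in any OHT library. Within sham, both were lowest in replicate 1 and highest in replicate 3. Within OHT the orders differed, with Rgs4 lowest in replicate 1, where that sum was highest. The part of mural cells in the Rgs4 and Rgs5 values was not tested.

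Of 13 genes that regulate Edn1 transcription, 12 were kept, with 1 above and 2 below without overlap and a median of -0.34. Epas1, a hypoxia-inducible factor abundant in endothelium, was at 3758 and 928 (a log2 difference of -1.86 ± 0.46, SE; adjusted p 0.332 in limma), and DESeq2 called it (adjusted p 0.00774). Fos was at 112308 and 86889 and Smad4 at 709 and 1009, without overlap in either gene. Jun, the highest of the list, was at 114249 to 163387 in sham and 9513 to 127591 in OHT. Gata2, a factor that binds the Edn1 promoter in endothelial cells, was not kept, with mean levels of 0.250 ppm in sham, 0.0684 ppm in OHT and 26.0 ppm in the cultures.

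Because these regulators are studied at the Edn1 promoter, its start was searched for 3 motifs on both strands. The motif of AP-1, the Fos and Jun dimer, was TGANTCA. The motif bound by Gata2 and its relatives was AGATAA. The core of the hypoxia element was ACGTG. The window runs from 250 bases before to 50 bases after the start of transcription in the RefSeq annotation of GRCm38.p6, a build older than the authors' mm39. The first 276 bases, chr13:42301226-42301501 on the plus strand, hold each match found, in capitals.
Edn1 promoter: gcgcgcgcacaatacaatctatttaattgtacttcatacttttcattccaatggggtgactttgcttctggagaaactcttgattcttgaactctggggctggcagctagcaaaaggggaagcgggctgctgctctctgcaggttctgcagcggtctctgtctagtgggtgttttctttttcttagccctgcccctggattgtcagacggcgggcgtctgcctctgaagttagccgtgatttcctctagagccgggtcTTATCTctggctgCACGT
The GATA match is TTATCT and the hypoxia element match CACGT, both on the minus strand and both after the start that RefSeq annotates. No exact match to the AP-1 letters was in this window. Variants of the letters and other starts of Edn1 were not searched, so the lack of a match does not show that AP-1 sites are absent. Among 32851 promoter windows of the same length, 11.2% held a GATA match, 19.6% a hypoxia element match and 7.81% an AP-1 match. Of the other 5 genes, only 1 of the 4 Ece1 windows held any match. Its hypoxia element matches, CACGT and ACGTG, began at bases 161 and 162 of the window, so they are 1 palindromic site read on both strands.

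Of 9 damage signal genes studied with Edn2 in the retina, all were kept, with 1 above and 1 below without overlap and a median of -0.21. Lif, the cytokine that induces Edn2 in injured retina, was at 19.6, 27.7 and 64.1 in sham and at 96.7, 90.5 and 72.1 in OHT (a log2 difference of 1.36 ± 1.02, SE; adjusted p 0.589 in limma). Fgf2 was at 129 and 44.4 (a log2 difference of -1.601 ± 0.98, SE; adjusted p 0.524 in limma). Gfap, the highest of them, was at 156, 22395 and 47682 in sham and at 3091, 369.6 and 3142 in OHT, so that sham replicate 1 was the lowest of all 6 libraries.

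Opposing and parallel vasoactive systems kept 12 of 16 genes, and all 12 had a log2 difference below 0, with a median of -1.10. Of all genes 54.8% were below 0, and none of the 12 passed the adjusted threshold. Differences below 0 were also found in 10 of 10 endothelial markers (median -1.61), in 8 of 9 kept mural and fibroblast markers (-2.75) and in 6 of 6 astrocyte markers. So it was in 10 of 10 rod (-2.55), 7 of 7 kept retinal ganglion cell (-1.54), 11 of 12 Müller glia (-0.81) and 6 of 7 kept cone markers. It was so in only 2 of 12 microglia and macrophage, 3 of 9 pigment epithelium and melanocyte and 1 of 5 erythrocyte markers. The part of these cell types in the vasoactive list was not tested. Only Ramp2, the adrenomedullin co-receptor of endothelium, was separated without overlap, at 160 in sham and 14.0 in OHT (a log2 difference of -3.41 ± 1.12, SE; adjusted p 0.343 in limma). DESeq2 called it with an adjusted p of 0.0489. Agt, the angiotensin precursor gene, was the highest, at 1744 and 456, with an overlap of the groups.

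**Figure D5:**
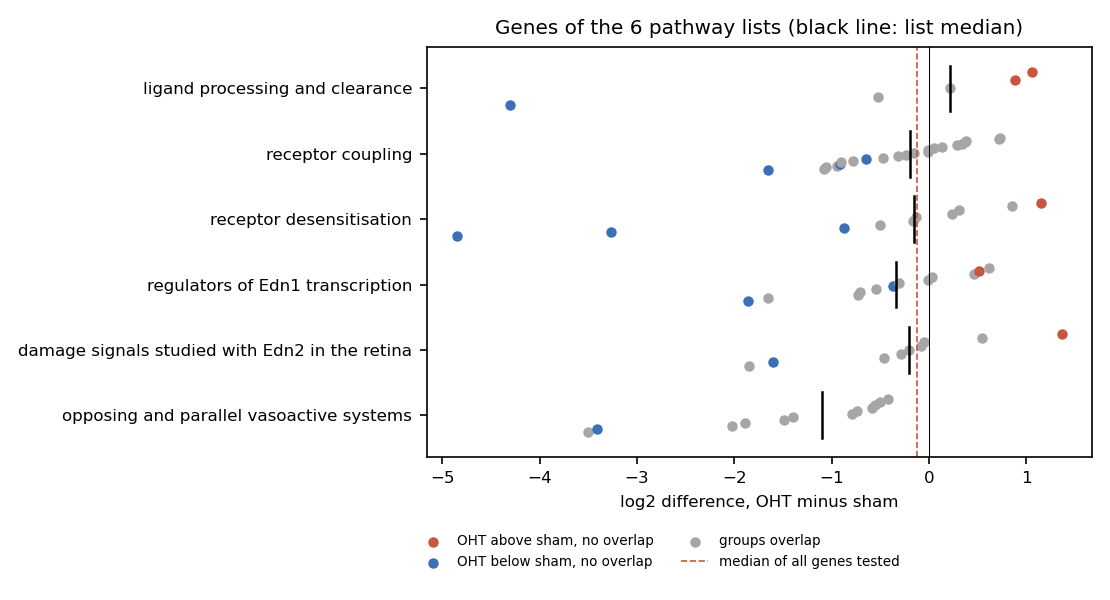
Log2 differences, OHT minus sham, of the kept genes of the 6 pathway lists (points; coloured where the groups do not overlap in normalised counts), with each list's median as a black line and the median of all genes (-0.12) dashed. The list of vasoactive systems lies wholly below 0 (median -1.10), and Rgs4 (-4.85) is the lowest point.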

How the data were processed

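Per the submitters' processing notes, reads were handled with bcl2fastq 2.20, Trim Galore 0.6.6, FastQC 0.11.9, STAR 2.7.1a and build mm39; neither the counting program nor the normalization tool is given in the sources used here. Each deposited signal value is a gene count that the authors divided by 1 factor per library. Dividing by the smallest step gave whole reads for 100% of values within 0.05 reads. The step nearest to 1 was 1.00731, in culture replicate 3. Totals of these reads gave ppm, and the limits given for a count of 0 cover counting error only. The tests used limma 3.58.1 (trend, no covariate), edgeR 4.0.16 and DESeq2 1.42.0 in R 4.3.3, and were tried on simulated data. Figures used matplotlib 3.10.9. Transcript lengths came from GENCODE M21 (GRCm38).

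Besides the members, up to 3 non-overlapping genes with the largest difference and the 1 highest gene per pathway list were named, and the 3 nearest profiles per member, of which 1 for Edn3 and 1 for Ednrb are not reported here. The members were given by symbol, and they, the lists and the markers were chosen with earlier results of these data known. Alternatives were a pseudocount of 10, no filter, other scalings, a replicate block, edgeR, DESeq2 and leaving out each library. All value columns belonged to a sample.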

Additional observations from a re-analysis of the deposited data

How the results depend on the processing

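Ednrb and Edn3 were below 0 under each alternative run, and no endothelin gene passed an adjusted threshold under any. Edn1 reversed when 1 library was left out (range -0.61 to 0.19), as did Ednra (-0.64 to 0.47) and Ece1 (-0.33 to 0.0113). Edn2 (0.42) ranged from -0.68 to 2.45 with 1 library left out and was -0.19 with a pseudocount of 10, -1.28 in edgeR and -1.20 in DESeq2; the cause was not tested. The count of all genes called was 0, and 0 to 12 with 1 library left out (12 without sham replicate 1 and 7 without sham replicate 3), 250 in DESeq2 and 2 with the replicate block, which changed no call of a member. The block moved Ednrb's adjusted p to 0.264; the numbers share no stated animal or batch, and same-numbered libraries deviated with r of 0.08, -0.02 and -0.05 across genes, not each best with its own number. Scaling to library totals moved the median of all genes from -0.12 to -0.36 and the Ednrb difference from -2.51 to -2.76, about the same distance below the median. In the cultures, leaving out the 20 highest genes from the total moved Ece1 to 169.5 ppm, and leaving out 1 culture gave 149.6 to 153.6 ppm for Ece1, 28.0 to 36.1 for Edn1, 8.16 to 9.80 for Ednra, 1.41 to 1.78 for Ednrb, 0.645 to 1.08 for Edn2 and 0 to 0.0132 for Edn3. With the median transcript length 13 of 15 pairs of members kept their order in sham libraries, 14 in OHT libraries and all 15 in culture. Sorted libraries held 0 to 71 reads of Edn2, 16 to 141 of Edn3 and 17 to 87 of Ednra.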

Other observations

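The reads of Ednrb were set against those of single marker genes within each sorted library, a comparison chosen after its values were seen and given as a description. Per 1000 reads of the rod gene Gnat1 there were 8.69, 9.74 and 10.0 reads of Ednrb in sham replicates 1 to 3 and 7.86, 6.64 and 11.7 in OHT replicates 1 to 3. Gnat1 is the gene whose profile was nearest to that of Ednrb, so this choice fixes a narrow range, which was 1.77-fold over the 6 libraries. Per 1000 reads of the 10 rod markers together, the ratio ranged 2.47-fold, from 1.35 in OHT replicate 2 to 3.32 in OHT replicate 3, while Ednrb itself ranged 26.4-fold. Per 1000 reads of Slc1a3, which encodes the antigen used for the sort, there were 13.8, 49.7 and 91.2 reads of Ednrb in sham and 8.86, 8.87 and 29.2 in OHT. Those per 1000 reads of the Müller genes Rlbp1 and Glul ranged 18.02-fold and 21.1-fold, and those per 1000 reads of the astrocyte gene Aldoc 5.58-fold. The rod list holds Gnat1 itself, and no such ratio was formed for the whole Müller glia or astrocyte list. The ranges can therefore not be compared between cell types. In the cultures Ednrb was at 1.56 ppm while Gnat1 was at 0.106 ppm. The part of any cell type in the Ednrb reads was not tested.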
